A study of Mus musculus with 15 samples.

Results

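Green, unroasted coffee was compared with roasted caffeinated coffee by the gene expression of the liver in mice that ate a high-fat diet with one powder or the other. The members are the arrays that the labels name as unroasted green coffee (HFGC group, 3 arrays) and as caffeinated coffee (HFCC group, 3 arrays), 6 of the 15 arrays of the series. No measured value was used to choose them, and all 18194 genes with a named probe set were compared between them. The question was whether livers exposed to powders with the same caffeine but different amounts of coffee phenolics differ in expression, and how large a difference these arrays could have missed.

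All mice were male C57BL/6J, an inbred strain that gains fat in the liver on a high-fat diet, began the diets at 7 weeks of age and stayed on them for 9 weeks. In both groups 60% of dietary energy came from fat and 2% of the diet was freeze-dried coffee powder, so the high-fat diet and the caffeine are common to them. The HF group received that diet without coffee, the HFDC group received it with 2% decaffeinated roasted coffee, and the ND group ate a normal diet, 10% of energy from fat, without coffee. Each array held liver RNA of 1 mouse, and the mice used were drawn at random from larger groups. Each diet was given as 1 powder, so the roasting and any other property of a powder cannot be told apart. The RNA came from bulk tissue, in which fewer cells of a type and less RNA per cell cannot be told apart.

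Roasting breaks down most of the chlorogenic acid of the bean, an ester of caffeic and quinic acid, and part of its trigonelline, from which nicotinic acid forms, while caffeine largely survives. The green powder accordingly held several times more chlorogenic acid, more trigonelline and somewhat more total polyphenol than the roasted one. After ingestion esterases free caffeic acid, which is methylated, sulfated, glucuronidated or joined to glycine and leaves the hepatocyte through organic anion transporters. Coffee constituents are also known to act on 2 sensors of the liver, the aryl hydrocarbon receptor (AhR), which switches on cytochromes of the Cyp1 family, and NRF2, which switches on antioxidant genes. Chlorogenic acid is furthermore a known inhibitor of the glucose 6-phosphate translocase, which works with glucose 6-phosphatase in the last step of glucose release.

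Liver arrays of the HFGC and HFCC groups lay no farther from each other than arrays of the same group. The distance between a pair of arrays was taken as the root mean square of the log2 differences over all genes. It ran from 0.173 to 0.210 over the 9 pairs of a green and a roasted array, with a mean of 0.191. Within the HFCC group it was 0.180 to 0.208 (mean 0.195, 3 pairs) and within the HFGC group 0.183 to 0.213 (mean 0.200, 3 pairs). The green and roasted pairs therefore fell in the range of the pairs within a group, apart from the lowest, which were closer. The mean distance was 0.226 between HFCC and HFDC arrays, 0.218 between HFDC and HFGC arrays, 0.241 between HF and HFCC arrays and 0.252 between HF and HFGC arrays. Pairs share arrays, so these values are a description without a test.

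**Figure D1:**
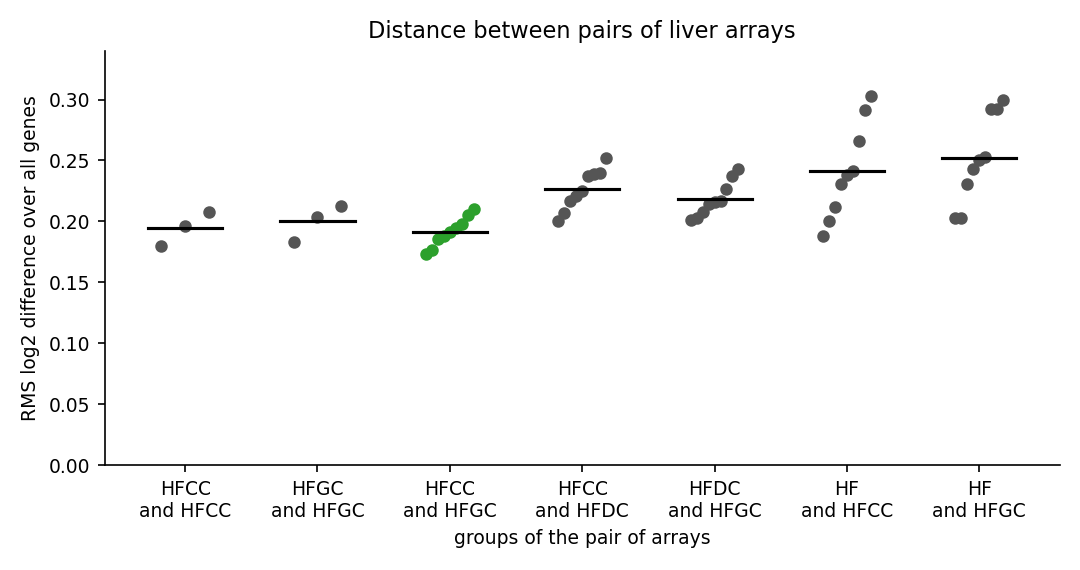
Root mean square log2 difference over 18194 genes for pairs of liver arrays, by the groups of the pair. Each point is 1 pair of arrays and each line the mean of its pairs. The 9 pairs of an HFCC and an HFGC array, in green, lie between 0.173 and 0.210, at the level of pairs within either group.

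No gene was called between green and roasted caffeinated coffee. Of 18194 genes, 0 (0%) had an adjusted p under 0.05 by limma, and the smallest adjusted p was 0.9998. At an unadjusted p under 0.05 there were 464 genes, 2.55% of those tested, of which 282 were higher and 182 lower in the HFGC group. The 3 green arrays lay wholly above or below the 3 roasted arrays in 1391 genes (7.65%), 863 higher and 528 lower. None of these genes was left after adjustment. The 2.55% is below the share of 0.05 that this threshold lets pass on average where no gene differs.

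The differences themselves were small. The median absolute log2 difference was 0.06, a 1.04-fold difference, and 95% of genes differed by 0.195 or less, a 1.14-fold difference. Only 28 genes (0.154%) differed by 1.5-fold or more, 6 higher and 22 lower in the HFGC group, and 2 differed by 2-fold or more. These 2 were Hamp, which encodes hepcidin, the iron-regulating hormone of the liver, and Moxd1, a copper-dependent monooxygenase homologue of low signal, both named after their values were seen. Neither was called, and Moxd1 was below 2-fold, at 0.71 on the log2 scale, without HFGC replicate 2.

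Each gene's 95% interval gives the largest difference that its arrays allow, for that gene taken alone. The whole interval lay within 2-fold for 18082 genes (99.4%), within 1.5-fold for 17622 genes (96.9%) and within 1.2-fold for 9441 genes (51.9%). The shares include dim genes, whose expression over background was not measured. For the median gene the far end of the interval was a 1.2-fold difference. In 2 one-sided tests against fixed limits, 18113 genes were called as differing by less than 2-fold and 17813 by less than 1.5-fold at an adjusted p under 0.05. When the intervals were widened so that they hold for all genes at once, 15387 genes (84.6%) stayed within 2-fold. Within 1.5-fold only 2822 of 18194 genes stayed, against 17622 by the single intervals. At the median standard error of 0.0918 a gene had to differ by 0.196 on the log2 scale, or 1.15-fold, to pass the unadjusted threshold. A lone gene had to differ by 0.67, or 1.59-fold, to pass the adjusted one. A lone difference below about that size would thus have been missed at the adjusted threshold, while its interval still bounds it.

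**Figure D2:**
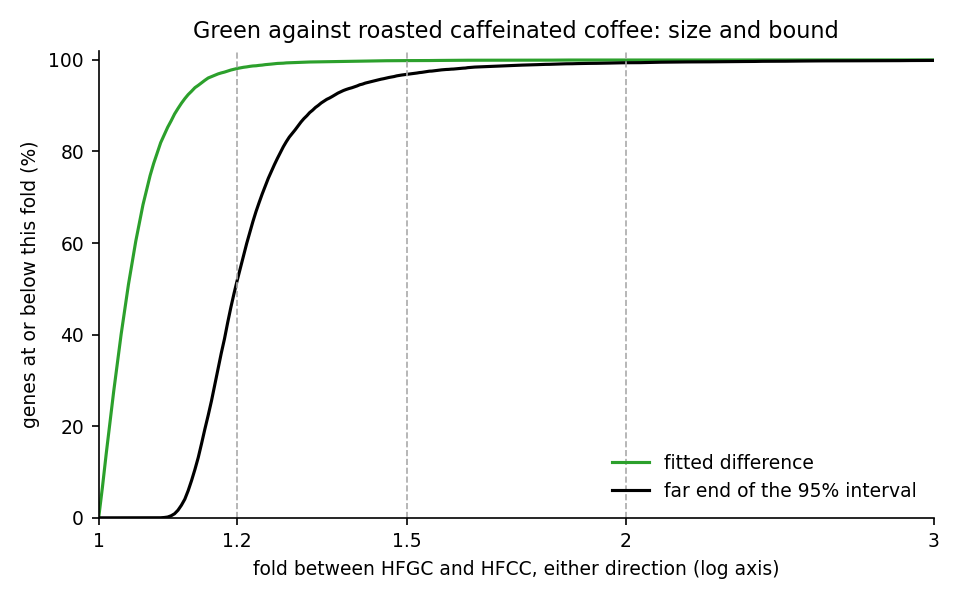
Share of 18194 genes (vertical axis, percent) whose difference between HFGC and HFCC is at or below a given fold in either direction (horizontal axis, log scale). The green line is the fitted difference and the black line the far end of its 95% interval, with dashed lines at 1.2-fold, 1.5-fold and 2-fold. The black line crosses 1.2-fold at 51.9%, 1.5-fold at 96.9% and 2-fold at 99.4% of genes.

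A single probe set was called when all 45037 probe sets that are not controls were tested without choosing 1 for each gene. It belongs to Arid4b, which encodes a subunit of a histone deacetylase complex, and is not the brightest of the 6 probe sets of this gene. Its log2 intensity was 3.36, 3.43 and 3.35 in the HFGC arrays and 4.26, 4.28 and 4.26 in the HFCC arrays. The groups were far apart and each was very tight, with a log2 difference of -0.89 (standard error 0.11, adjusted p = 0.042 by limma). The signal was dim, above that of only 15.9% of probe sets. The brightest Arid4b probe set read 8.04, 8.07 and 8.01 in the HFGC arrays against 8.27, 8.10 and 8.15 in the HFCC arrays, with a log2 difference of -0.14 (95% interval -0.34 to 0.07). Of the 6 probe sets, 5 were lower in the HFGC group, and the dimmest was higher, by 0.03. Besides the called one, the unadjusted threshold was passed by probe sets with log2 differences of -0.24 (unadjusted p = 0.021) and -0.27 (unadjusted p = 0.049), both by limma. The call after adjustment rests on 1 of the 6.

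Among genes at or above the median level whose groups did not overlap and whose unadjusted p was under 0.05, the highest in green coffee was Gadd45a, a stress-induced gene of growth arrest. Its log2 intensity was 7.99, 8.21 and 8.12 in the HFGC arrays and 6.86, 7.44 and 7.38 in the HFCC arrays. Every green array lay above every roasted one, with a log2 difference of 0.88 (95% interval 0.33 to 1.43, unadjusted p = 0.0039, adjusted p = 1 by limma). Ifi27, an interferon-induced gene, followed with a log2 difference of 0.39 (0.16 to 0.62, unadjusted p = 0.0023), from 10.24, 10.40 and 10.21 in the green arrays against 9.92, 9.63 and 10.13 in the roasted ones. The others of the 10 highest were Cadm4, Susd4, Hsd3b3, Nlrc5, Pdgfa, Fam167b, Pnpla7 and Psmd9, with log2 differences from 0.28 to 0.35. Nlrc5 is known as an activator of major histocompatibility complex class I genes, and Pnpla7 as a lysophospholipase.

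The 10 lowest in green coffee by the same criteria included genes of fat uptake and glucose release. Fabp4, a fatty acid carrier, read 8.65, 8.19 and 8.42 in the HFGC arrays and 10.09, 8.79 and 9.01 in the HFCC arrays. The groups were separate, but the difference of -0.87 (95% interval -1.64 to -0.11, unadjusted p = 0.028) leaned on HFCC replicate 1, without which it was -0.477. Cd36, a fatty acid transporter of the cell surface, read 9.35, 9.14 and 9.30 against 9.92, 10.32 and 9.43, a log2 difference of -0.63 (-1.08 to -0.18, unadjusted p = 0.0095). The green arrays were close to each other and just below the lowest roasted array. Without HFCC replicate 2 the Cd36 difference was -0.416.

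G6pc, the catalytic subunit of glucose 6-phosphatase, was nearly constant in green coffee, at 11.02, 11.00 and 10.99, and ranged wider in roasted coffee, at 11.31, 12.12 and 11.64. Its log2 difference was -0.69 (95% interval -1.32 to -0.05, unadjusted p = 0.036), and between -0.875 and -0.471 when any 1 of the 6 arrays was left out, with an unadjusted p under 0.05 in 1 of these 6 fits. Ildr2, a protein of the endoplasmic reticulum that has been tied to hepatic lipid, read 7.78, 7.59 and 7.37 against 8.35, 8.46 and 7.96. Its log2 difference of -0.68 (-1.06 to -0.30, unadjusted p = 0.0017) had the smallest unadjusted p of these 10 and kept an unadjusted p under 0.05 without any 1 of the 6 arrays.

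Rdh11, a retinal reductase, read 7.03, 7.28 and 7.72 in the green arrays and 8.22, 7.76 and 8.07 in the roasted ones, a log2 difference of -0.68. Gprin3 read 6.73, 6.27 and 6.24 against 7.17, 7.01 and 6.98, a difference of -0.64. Both lay lower in green coffee in every array, Rdh11 by a narrow margin. The remaining genes were Ddx6, an RNA helicase of processing bodies, Zbed6, Slc3a1, a subunit of an amino acid transporter, and Csnk2a1, a catalytic subunit of casein kinase 2, with log2 differences from -0.60 to -0.47. Without HFGC replicate 3 Ddx6 differed by -0.322 and Zbed6 by -0.235, and with probe sets averaged Ddx6 differed by -0.318 and Csnk2a1 by -0.234. Slc3a1 passed the unadjusted threshold in 1 of the 6 fits without a green or roasted array. None of the 20 genes was called, and 7.65% of all genes had arrays that did not overlap.

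The 5 smallest unadjusted p-values belonged to dim or mid-level genes, all higher in green coffee. Nhej1, a factor of DNA end joining, had the smallest (0.00026), with 5.99, 6.08 and 6.03 in the HFGC arrays and 5.33, 5.59 and 5.75 in the HFCC arrays. Cxcl2, a chemokine that attracts neutrophils, was next, at 3.69, 3.49 and 3.60 against 3.26, 3.12 and 3.30. The groups were separate for both genes, by 0.48 (95% interval 0.26 to 0.70) and 0.37 (0.20 to 0.53) on the log2 scale. Both genes lay below the level of 6.41 of the median gene, and Cxcl2 was dim. The Nhej1 difference was 0.182 when its probe sets were averaged and 0.302 with an offset of 32. The others were Prr12 and a pair of clone-named genes, with log2 differences of 0.23 to 0.32.

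**Figure D3:**
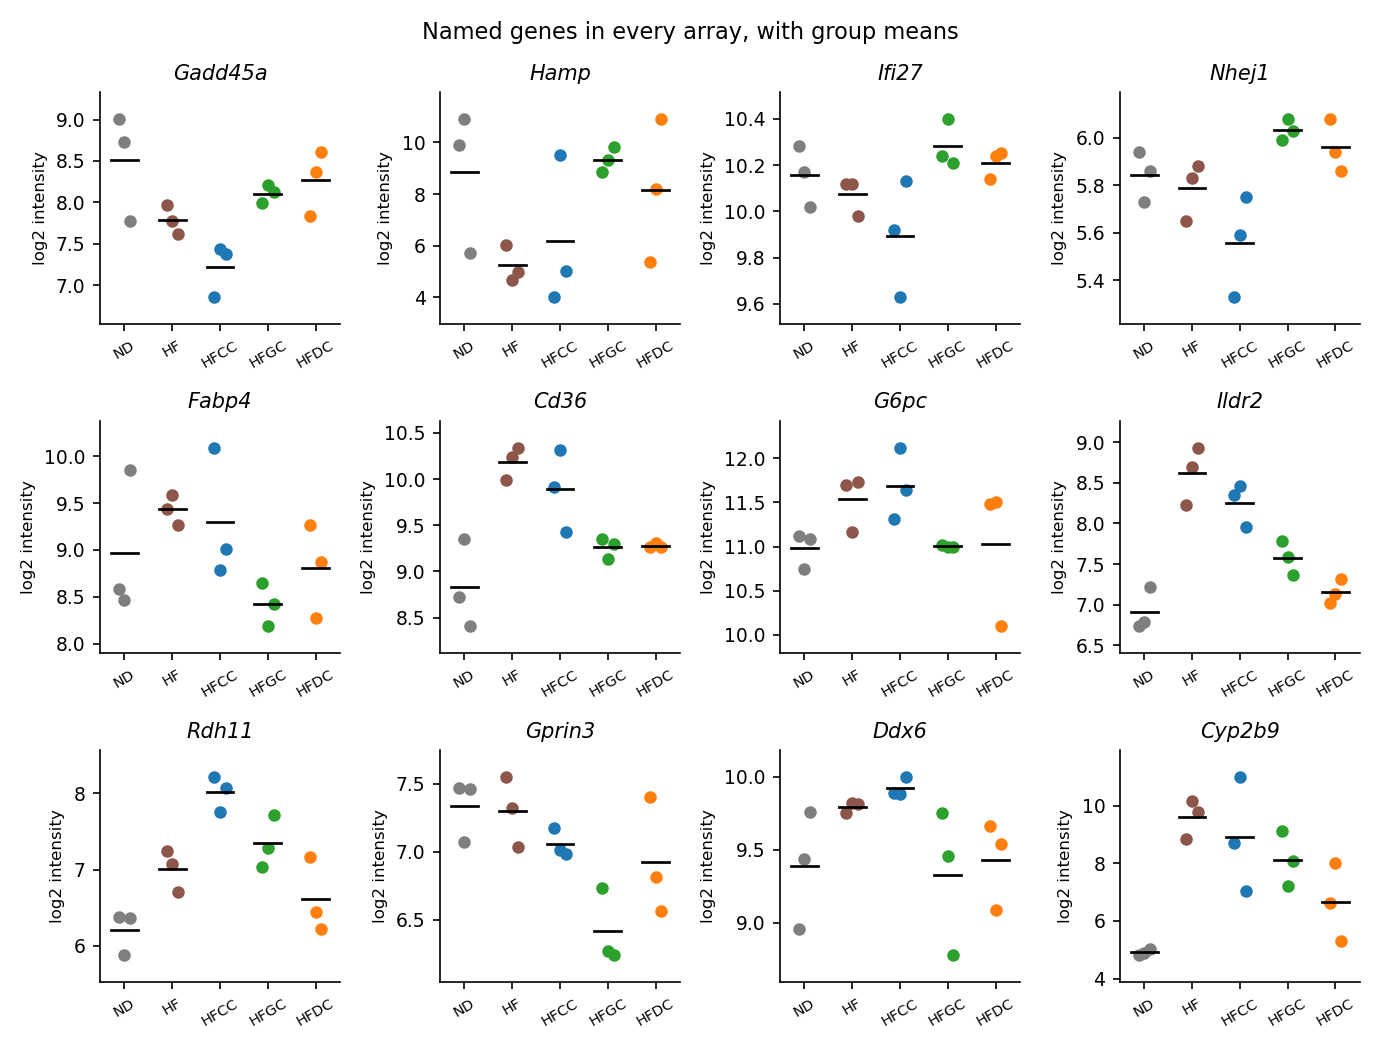
Log2 intensity of 12 named genes in all 15 arrays, 1 point for each array and a line for the mean of each group, with a vertical scale of its own in each panel. The HFGC arrays of G6pc lie between 10.99 and 11.02 below all HFCC arrays, while Hamp and Cyp2b9 spread widely within the HFCC group.

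Genes that handle chlorogenic acid and the acids freed from it were bounded as follows. For this list and those below, the shares over all genes were 2.55% at the unadjusted threshold, 96.9% within 1.5-fold and 99.4% within 2-fold. Of 13 measured carboxylesterases and related hydrolases, 0 were higher and 1 lower at an unadjusted p under 0.05, the median log2 difference was -0.07 (0.01 over all genes), and all 13 were bounded within 2-fold. The 1 was Ces1c, a secreted carboxylesterase, at 13.59, 13.59 and 13.54 in the green arrays against 13.69, 13.75 and 13.66 in the roasted ones. The green arrays were lower throughout, by 0.13 (standard error 0.06, unadjusted p = 0.048), and the interval ended at a 1.19-fold difference. Ces1c passed the threshold in 0 of the 6 fits without a green or roasted array and missed it with the replicate block and with cyclic loess.

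Of 39 genes of phenolic acid conjugation, 0 were higher and 1 lower at the unadjusted threshold, and 37 were bounded within 2-fold. The methylation genes Ahcy, Mat1a and Comtd1 all stayed within 1.5-fold. Among 9 genes of sulfation, Sult1a1, the main phenol sulfotransferase, read 12.49, 12.49 and 12.83 against 12.77, 12.73 and 12.62, a log2 difference of -0.10 (95% interval -0.35 to 0.14). Sult1c2 was the 1 below the threshold, at 5.81, 6.05 and 5.94 in green coffee against 6.32, 6.39 and 6.22 in roasted coffee. This sulfotransferase was lower in all green arrays, by 0.38 (-0.71 to -0.05, unadjusted p = 0.028), and passed the threshold in 2 of the 6 fits without a green or roasted array.

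The 2 conjugation genes that were not bounded within 2-fold were each spread widely within a group. Sult1e1, the estrogen sulfotransferase, was at 3.70, 4.08 and 7.09 in the HFGC arrays and between 4.11 and 4.30 in the HFCC arrays. Its difference of 0.77 came from HFGC replicate 3 and was -0.30 without it. Ugt2b38, a glucuronosyltransferase, read 7.34, 8.08 and 7.84 against 6.93, 6.29 and 7.86, a log2 difference of 0.73 (95% interval -0.12 to 1.57) that was 0.36 without HFCC replicate 2 and 1.14 without HFCC replicate 3. Of the 11 genes of glucuronidation measured, it was the 1 outside 1.5-fold, and the 16 genes of glycine and glutathione conjugation were all within 2-fold.

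Of the 15 measured organic anion transporters on the list, all were within 2-fold and 12 within 1.5-fold. Slc22a29 and Slc22a27 are organic anion carriers outside the list. Both were lower in green coffee at the unadjusted threshold and were not bounded within 2-fold, as given under other observations. Abcb11, the bile salt export pump, was the 1 listed transporter at the unadjusted threshold. It read 10.90, 10.77 and 10.64 in green coffee and 10.96, 11.27 and 10.93 in roasted coffee. Its log2 difference was -0.28 (95% interval -0.54 to -0.02, unadjusted p = 0.036), and -0.174 without HFCC replicate 2. It passed the threshold in 3 of the 6 fits without a green or roasted array. The uptake carrier Slco1b2 read 12.94, 12.95 and 12.94 against 12.90, 12.98 and 12.91, with an interval of -0.17 to 0.19.

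The AhR pathway showed no difference at the unadjusted threshold in any of its 9 measured members, all of them bounded within 2-fold and 8 within 1.5-fold. Cyp1a2, which clears caffeine and is a target of AhR, read 11.94, 12.06 and 11.88 in the HFGC arrays and 12.03, 12.01 and 12.18 in the HFCC arrays. The arrays overlapped, the log2 difference was -0.11 (95% interval -0.31 to 0.08), and the far end was 1.24-fold. Cyp1a1, the most inducible target, read 5.12, 5.51 and 5.40 against 5.16, 5.56 and 5.40, with an interval of -0.26 to 0.20. Tiparp, another target that limits the receptor, had an interval of -0.28 to 0.21. The receptor itself, Ahr, read 10.63, 10.87 and 10.81 against 10.12, 10.73 and 10.70 and was the member outside 1.5-fold, with a log2 difference of 0.25 (-0.28 to 0.79).

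The list of NRF2 and its partners and targets had 27 measured genes. At the unadjusted threshold 1 was higher and 0 lower (3.7%, against 2.55% of all genes). The median log2 difference was -0.00784, all 27 genes were within 2-fold and 25 within 1.5-fold. Nfe2l2, which encodes NRF2, read 9.52, 9.88 and 9.82 in the HFGC arrays and 9.55, 9.79 and 9.91 in the HFCC arrays (interval -0.40 to 0.38). Its inhibitor Keap1 had an interval of -0.13 to 0.25. The glutathione synthesis genes Gclm and Gclc differed by -0.16 (-0.41 to 0.10) and 0.14 (-0.16 to 0.44), in opposite directions and with overlapping arrays. Nqo1, a quinone reductase that both sensors regulate, read 6.28, 6.59 and 6.94 against 6.91, 6.80 and 6.54 (interval -0.48 to 0.18). The 1 gene at the threshold was Cbr3, a carbonyl reductase, higher in green coffee at 6.12, 5.85 and 5.98 against 5.71, 5.81 and 5.83, by 0.20 (0.01 to 0.39, unadjusted p = 0.039). The Cbr3 difference was 0.131 without HFGC replicate 1, and it missed the threshold with the replicate block, with cyclic loess and with the 9 coffee arrays alone.

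The promoters of a target of each sensor are shown because these genes would report on it, taken from RefSeq on GRCm38.p6, 250 bases before to 50 bases after the start of the gene. Capitals mark the AhR core motif GCGTG and the NRF2 core motif TGACNNNGC on either strand, so that a motif on the other strand appears as its reverse complement, and no match of one motif overlaps one of the other in these windows. The Cyp1a1 window lies on the plus strand at chr9:57697363-57697662 and holds 1 AhR core and 0 NRF2 cores. The Gclm window lies on the plus strand at chr3:122245307-122245606 and holds 3 AhR cores and 1 NRF2 core.
Cyp1a1: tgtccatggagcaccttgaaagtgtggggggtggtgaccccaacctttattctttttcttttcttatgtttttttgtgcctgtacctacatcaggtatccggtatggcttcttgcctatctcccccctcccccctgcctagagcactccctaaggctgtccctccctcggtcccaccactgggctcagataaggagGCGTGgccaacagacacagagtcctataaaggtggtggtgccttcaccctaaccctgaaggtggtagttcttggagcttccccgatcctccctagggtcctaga
Gclm: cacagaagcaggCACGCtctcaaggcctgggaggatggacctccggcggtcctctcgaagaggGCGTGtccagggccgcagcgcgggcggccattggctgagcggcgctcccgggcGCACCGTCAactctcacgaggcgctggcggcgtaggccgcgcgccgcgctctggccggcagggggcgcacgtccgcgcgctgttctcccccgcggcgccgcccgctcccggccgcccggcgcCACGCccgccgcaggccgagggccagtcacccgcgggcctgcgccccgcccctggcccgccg
Of 27025 genes with a promoter window in the table, 35.2% had the AhR core and 14% the NRF2 core. Windows were found for 7 measured genes of the AhR list and 23 of the NRF2 list. The AhR core was in 71.4% of the former and 73.9% of the latter, and the NRF2 core in 14.3% and 43.5%. A match is a description of the letters, and neither target differed between green and roasted coffee at the unadjusted threshold.

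Of 12 genes of caffeine metabolism and of the known targets of caffeine, 1 was higher at the unadjusted threshold and all were within 2-fold. Pde4a, a phosphodiesterase, read 6.44, 6.76 and 6.68 in the HFGC arrays and 6.54, 6.29 and 6.47 in the HFCC arrays, a log2 difference of 0.19 (unadjusted p = 0.044) that was 0.122 without HFCC replicate 2. It missed the threshold with the replicate block, with cyclic loess and with the 2 groups compared alone. The metabolic enzymes Xdh and Nat2 differed by -0.03 (95% interval -0.30 to 0.24) and -0.06 (-0.37 to 0.25).

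The drug-sensing receptors CAR and PXR had 14 measured targets, of which 3 were lower and 0 higher in green coffee at the unadjusted threshold. Over all genes 1% were lower and 1.55% higher at this threshold. All 4 receptor genes of the list were within 1.5-fold. Nr1i3, which encodes CAR, differed by 0.16 (95% interval -0.12 to 0.44). Among the targets, Cyp2c38 read 8.99, 8.77 and 8.95 in the HFGC arrays against 9.61, 9.90 and 8.91 in the HFCC arrays, a log2 difference of -0.57 (unadjusted p = 0.015). Cyp2b13 read 5.87, 5.69 and 5.75 against 6.00, 7.55 and 5.83, a difference of -0.69 (unadjusted p = 0.036). HFCC replicate 2 was high in both cytochromes and in Cyp2b10, whose difference was -0.32 (unadjusted p = 0.043). Without that array the differences of Cyp2c38, Cyp2b13 and Cyp2b10 were -0.359, -0.144 and -0.205. The probe sets of Cyp2b10 disagreed, since their average differed by -1 in place of -0.32 (unadjusted p = 0.0024 by limma). That average was not refitted without HFCC replicate 2. Cyp2b9, the target with the widest interval, read 9.12, 7.21 and 8.07 against 8.71, 11.01 and 7.04. Its difference of -0.78 (-2.50 to 0.94) turned to 0.262 without HFCC replicate 2. Cytochromes of these subfamilies are close in sequence, so probe sets may bind more than 1 of them.

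Trigonelline feeds nicotinic acid, and none of 21 genes of nicotinate and NAD metabolism passed the unadjusted threshold. All were within 2-fold and 20 within 1.5-fold. Naprt, which uses nicotinic acid, read 9.82, 9.94 and 9.97 in the HFGC arrays and 9.88, 9.73 and 9.69 in the HFCC arrays, a log2 difference of 0.14 (95% interval -0.04 to 0.32). Nampt, which recycles nicotinamide, had an interval of -0.28 to 0.46, and Nnmt, which methylates it for excretion, an interval of -0.57 to 0.43. The member outside 1.5-fold was Nmrk1, a nicotinamide riboside kinase, with a difference of -0.23 (-0.59 to 0.13).

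In glucose metabolism, G6pc was the 1 of 26 measured genes at the unadjusted threshold. Slc37a4, the glucose 6-phosphate translocase, read 10.78, 10.99 and 11.36 in the HFGC arrays and 11.13, 11.02 and 11.26 in the HFCC arrays. These arrays overlapped, with a log2 difference of -0.09 (95% interval -0.35 to 0.17), so the translocase was bounded within 1.27-fold while G6pc was bounded only within 2.5-fold. Fbp1, a gluconeogenic enzyme, read 13.90, 13.88 and 13.93 against 13.92, 13.90 and 13.88 and was bounded within 1.12-fold. Pck1, which starts gluconeogenesis, ranged from 10.52 to 11.50 in the green arrays and from 10.55 to 11.45 in the roasted ones, with an interval of -0.72 to 0.97. The widest of the list was Igfbp1, an insulin-responsive binding protein, with an interval of -1.55 to 1.76.

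Fat uptake and storage under PPARg had 13 measured genes, of which 2, Fabp4 and Cd36, were lower and 0 higher at the unadjusted threshold. Over all genes 1% were lower and 1.55% higher at this threshold. Of the list, 11 genes were within 2-fold. Pparg itself read 6.91, 6.79 and 7.16 in the HFGC arrays and 6.96, 6.99 and 7.08 in the HFCC arrays, a log2 difference of -0.06 (95% interval -0.38 to 0.27). Lpl, lipoprotein lipase, went the other way from Cd36, at 9.39, 9.31 and 9.50 against 9.02, 8.59 and 9.46, a difference of 0.38 (-0.06 to 0.82). The list had a median difference of -0.03, near that of all genes, while 6 of its genes were higher and 7 lower. Fabp4 also marks adipocytes, and the other 3 measured adipocyte markers, Adipoq, Lep and Retn, differed by 0.11, -0.09 and 0.14.

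Fatty acid synthesis and oxidation held no gene at the unadjusted threshold among 23 and 29 measured. Their median log2 differences were -0.05 and 0.03, and 21 and 27 genes were within 2-fold. Cpt1a, which admits fatty acids to the mitochondrion, read 11.82, 11.76 and 11.79 in the HFGC arrays and 11.59, 11.74 and 11.80 in the HFCC arrays, an interval of -0.22 to 0.38. The synthesis genes spread more. Fasn, fatty acid synthase, read 9.50, 10.09 and 10.76 against 10.25, 9.98 and 10.53, an interval of -0.90 to 0.63. Srebf1, the regulator of these enzymes, had an interval of -0.68 to 1.18. Thrsp had the largest difference of this list, -0.53 (-1.31 to 0.25).

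Cholesterol synthesis was the pathway that these arrays bounded least. Of 21 measured genes, 20 were lower in the HFGC group, with a median log2 difference of -0.28, yet none passed the unadjusted threshold, 6 were within 1.5-fold and 13 within 2-fold. The mean of the list was 9.64, 10.05 and 10.41 in the HFGC arrays and 10.54, 9.92 and 10.44 in the HFCC arrays. The arrays overlapped between groups, with HFGC replicate 1 the lowest and HFCC replicate 2 next. Without HFGC replicate 1 the median difference was -0.0454, and without HFCC replicate 2 it was -0.474.

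HFGC replicate 1 was also the lowest array in the enzymes that follow. Hmgcs1, which makes hydroxymethylglutaryl-CoA, read 11.88, 12.45 and 12.90 in the HFGC arrays and 13.24, 12.47 and 12.98 in the HFCC arrays, a log2 difference of -0.49 (95% interval -1.34 to 0.37). Fdps, farnesyl diphosphate synthase, read 9.80, 10.52 and 10.97 against 11.15, 10.07 and 11.02, a difference of -0.32 (-1.18 to 0.55). Nsdhl, a sterol dehydrogenase, came nearest to the threshold, with -0.57 (-1.14 to 0.01, unadjusted p = 0.055). Without HFGC replicate 1 the differences of Hmgcs1, Fdps and Nsdhl were -0.222, -0.00305 and -0.314. Set against the mean of both roasted groups in place of the HFCC group alone, the median of the list was 0.31, the other direction, with 4 genes higher and 0 lower at an unadjusted p under 0.05 (3.36% of all genes in that comparison, 318 higher and 294 lower).

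Bile acid synthesis and transport had 20 measured genes, with Abcb11 the 1 at the unadjusted threshold and 18 within 2-fold. Cyp7a1, the rate-limiting enzyme of bile acid synthesis, read 11.92, 11.87 and 11.10 in the HFGC arrays and 11.87, 11.36 and 11.91 in the HFCC arrays, an interval of -0.92 to 0.76. Nr0b2, a repressor of Cyp7a1, had the widest interval of the list, -1.62 to 0.68, with 7.86, 9.61 and 8.20 against 8.83, 9.12 and 9.13.

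The TCA cycle was the pathway with the tightest bounds, since all 19 measured genes were within 1.5-fold and none passed the unadjusted threshold. Idh3a, a subunit of the NAD-dependent isocitrate dehydrogenase, was the widest, at 9.68, 9.86 and 9.52 in the HFGC arrays and 9.49, 9.85 and 9.96 in the HFCC arrays, and was bounded within 1.39-fold. Cs, citrate synthase, was bounded within 1.17-fold and Mdh2, mitochondrial malate dehydrogenase, within 1.16-fold. In the urea cycle, none of 11 measured genes passed the unadjusted threshold and all were within 2-fold. Cps1, the enzyme of the first step, differed by 0.06, with an interval of -0.19 to 0.31. Ass1, argininosuccinate synthase, was the widest, with -0.34 (-0.99 to 0.31).

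The clock and stress lists held no gene at the unadjusted threshold in this comparison. Of 17 clock genes, 16 were within 2-fold, with a median log2 difference of 0.08. Per2, a repressor of the clock, read 8.62, 8.99 and 9.01 in the HFGC arrays and 8.52, 8.54 and 8.58 in the HFCC arrays. Every green array was higher, by 0.33 (95% interval -0.02 to 0.68, unadjusted p = 0.064). Of 14 glucocorticoid-responsive genes, 9 were within 2-fold, and Mt1, metallothionein, differed by -0.67 (-1.57 to 0.24). All 27 genes of the unfolded protein and ATF4 responses were within 2-fold, with a median of -0.00177.

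Markers of hepatocytes, the main cells of the liver, were high in all arrays. The 7 measured were bounded within 1.5-fold, and Alb, albumin, lay between 14.76 and 14.78 in all 6 arrays, at the top of the range of the arrays. All endothelial, cholangiocyte, lymphocyte and pancreas markers measured were within 1.5-fold, and none of the 62 marker genes was called. Of the 10 stellate cell markers 9 were within 1.5-fold and of the 4 blood cell markers 2, all of both lists being within 2-fold, while 1 of the 4 adipocyte markers, Fabp4, was not within 2-fold. Macrophage markers had the lowest share within 1.5-fold of these lists. All 11 were lower in the HFGC group, with a median log2 difference of -0.20, but only 2 were within 1.5-fold. The mean of the list was 9.48, 9.10 and 8.96 in the HFGC arrays and 9.17, 8.93 and 10.11 in the HFCC arrays.

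HFCC replicate 3 thus stood above the other 5 arrays in macrophage markers. Marco, a scavenger receptor of macrophages, read 7.79, 6.45 and 6.74 in the HFGC arrays and 6.83, 6.04 and 9.47 in the HFCC arrays. Adgre1, which encodes F4/80, read 8.59, 8.07 and 7.97 against 8.20, 7.93 and 9.40. Without HFCC replicate 3 the median difference of the list was 0.134, so its direction rests on that array. Of 22 inflammation genes, none passed the unadjusted threshold and 19 were within 2-fold, and the 3 that were not were all among the 12 acute phase genes. Saa2, an acute phase apolipoprotein, had the largest difference of the list, 0.40, with an interval of -0.5 to 1.3.

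**Figure D4:**
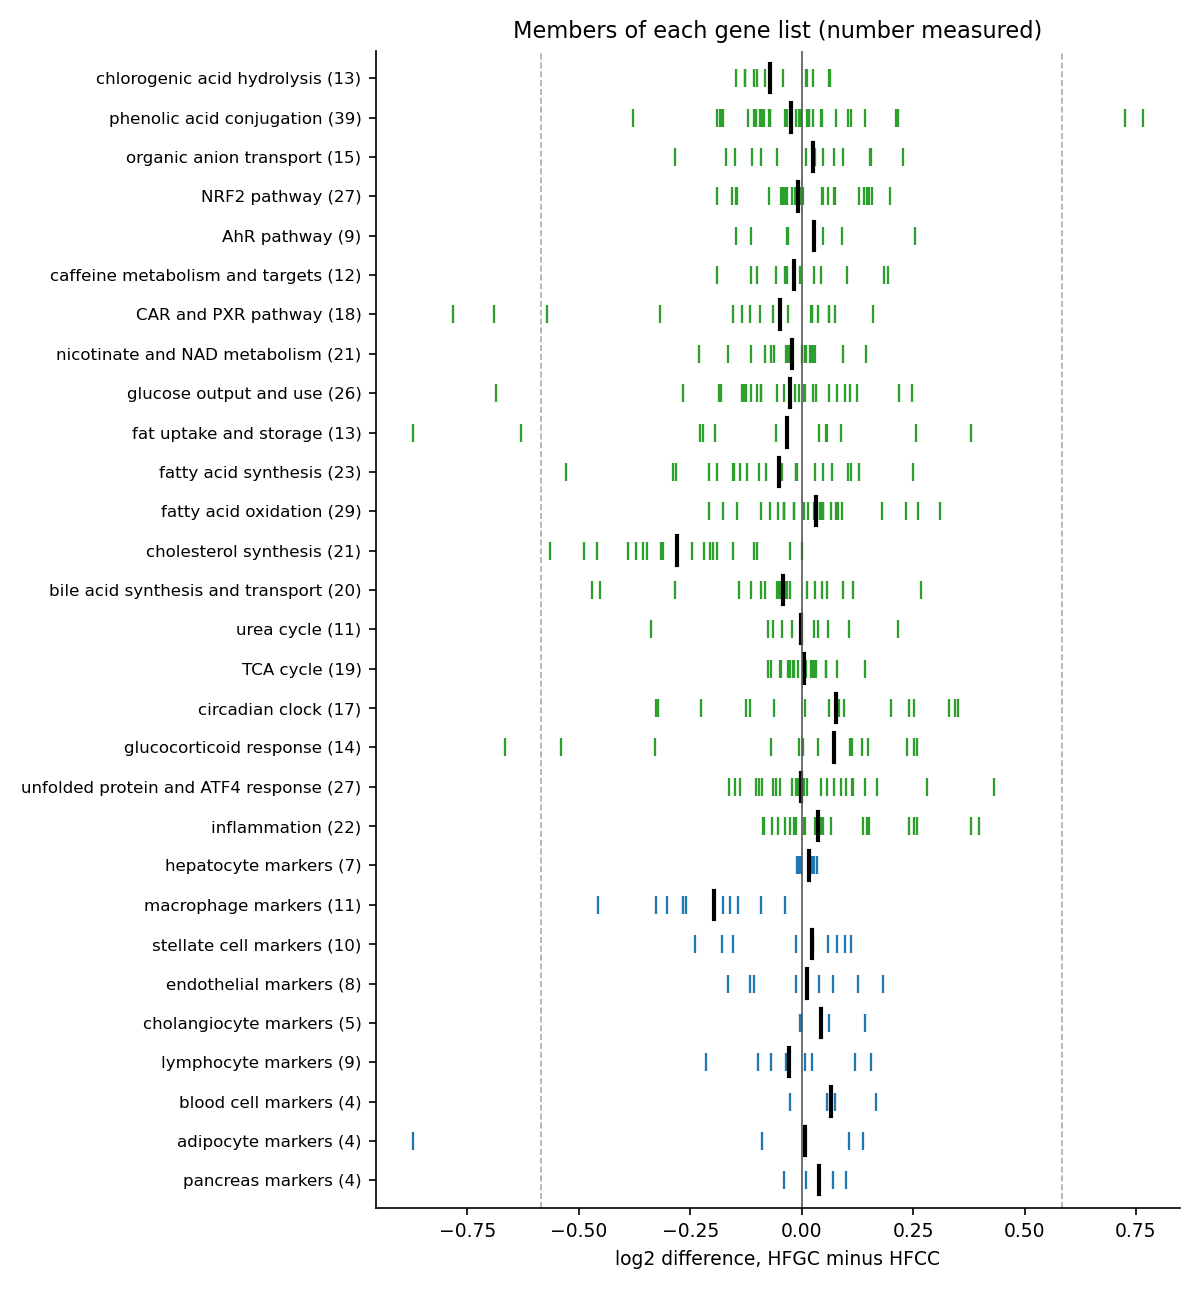
Log2 difference, HFGC minus HFCC, for each measured member of 29 gene lists (ticks, green for pathways and blue for cell type markers), with the median of each list as a black bar and dashed lines at 1.5-fold. Most members lie near 0, cholesterol synthesis has a median of -0.28 and macrophage markers one of -0.20, and neither list holds a called gene.

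Over all 382 measured genes of the pathway lists, 0 were called, and the median log2 difference was -0.01. At an unadjusted p under 0.05, 2 were higher and 9 lower (2.88% in either direction, near the 2.55% of all genes). By direction the shares differed, with 2.36% lower and 0.524% higher against 1% lower and 1.55% higher over all genes. Within 2-fold were 352 of them and within 1.5-fold 290. These shares are below the 99.4% and 96.9% of all genes, so the listed genes were bounded less tightly than the average gene. Bounds also loosened with the level of a gene. The genes were cut into 3 equal groups by level. Within 1.5-fold were 99.1% of the dimmest, 96.7% of the middle group and 94.8% of the brightest, at median standard errors of 0.0915, 0.0926 and 0.0914. Whether the dim genes were expressed was not measured, so a tight bound on them does not show equal expression.

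The 112 genes whose interval reached beyond 2-fold are those for which these arrays leave a sizeable difference possible. Their median SD within groups was 0.589 on the log2 scale, against 0.114 over all genes, 89 were at or above the median level, and 14 had an unadjusted p under 0.05. Hamp had the widest interval of all. It was at 8.87, 9.31 and 9.83 in the HFGC arrays and at 4.01, 9.53 and 5.01 in the HFCC arrays, a log2 difference of 3.15 (95% interval -0.02 to 6.33, unadjusted p = 0.051). All green arrays were high, while 2 of the 3 roasted arrays were low and HFCC replicate 2 was as high as the green ones. The difference was 4.83 without that array, 2.07 without HFCC replicate 1 and 2.05 with a covariate for RNA integrity (the 3' minus 5' value). The HF arrays were all low, at 4.67 to 6.04, while the ND and HFDC arrays ranged from 5.73 to 10.90 and from 5.36 to 10.92.

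Others with wide intervals were spread within 1 or both groups. Bcl6, a transcriptional repressor, read 6.59, 9.60 and 6.23 in the HFGC arrays and 6.00, 7.84 and 9.28 in the HFCC arrays, an interval of -2.36 to 1.90. Egfr, the receptor of epidermal growth factor, read 11.49, 10.96 and 9.27 against 11.49, 10.93 and 11.82, an interval of -2.29 to 0.61. Its log2 difference of -0.841 leaned on HFGC replicate 3, without which it was -0.19. With probe sets averaged the Egfr difference was -0.225. Hspa1a, a heat shock protein, read 7.09, 5.55 and 5.69 against 7.50, 5.31 and 5.60, with 1 high array in each group. The erythroid genes Slc4a1 and Hemgn, the pseudogene Serpina4-ps1, Marco, Cyp2b9 and Igfbp1 made up the rest of the 10 widest intervals.

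In genes called for the mean of the caffeinated coffees against the high-fat diet alone, the difference between green and roasted coffee was mostly bounded below that shift. The mean of the HFGC and HFCC groups differed from the HF group in 1458 genes (8.01%) at an adjusted p under 0.05, 489 higher and 969 lower. A call on the mean is not a call in each group, since HFCC alone was called against HF in 298 genes and HFGC alone in 563. In the 1458 genes the median shift was 0.346 on the log2 scale, or 1.27-fold, and the median absolute difference between green and roasted coffee was 0.05. The 95% interval of the green and roasted difference lay within 1.5-fold in 1422 of them (97.5%), near the 96.9% of all genes. Its far end was smaller than the shift itself in 1281 (87.9%). Only 34 (2.33%) had an unadjusted p under 0.05 between green and roasted coffee, close to the 2.55% of all genes. The genes were chosen by their shift, and a call needs a shift that is large against its standard error. The size of the shift and the shares set against it are thus a description and no test.

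The call of these 1458 genes depended on the HF arrays. It was 2468 genes without HF replicate 1, 7 without HF replicate 2 and 152 without HF replicate 3, and 764 without HFCC replicate 3 and 953 without HFGC replicate 1. RNA integrity, read from how far the 3' probe sets of Gapdh and Actb exceeded their 5' probe sets, also differed in level, at 1.22 ± 0.17 (SD, n = 3) on the log2 scale. The same value was 0.926 ± 0.12 in the HFCC group and 0.824 ± 0.11 in the HFGC group, and its part in the shift was not tested. The comparison of green with roasted coffee does not use the level of the HF arrays, and its count of called genes was 0 without any 1 of the 15 arrays.

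**Figure D5:**
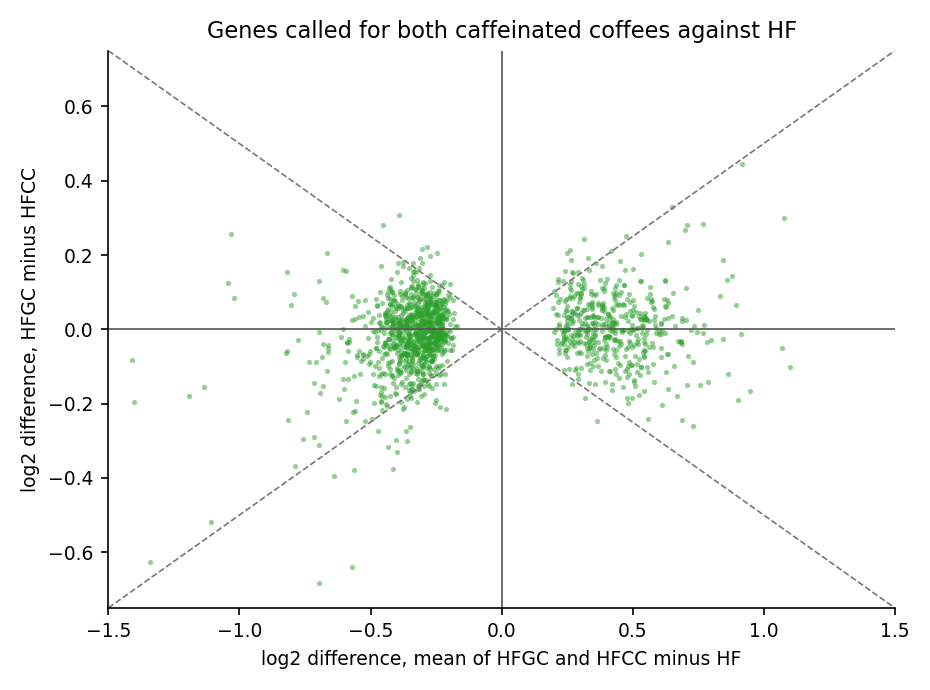
The 1458 genes called for the mean of the HFGC and HFCC groups against the HF group, 1 point each, with that log2 difference on the horizontal axis and HFGC minus HFCC on the vertical axis. Dashed lines mark a green and roasted difference of 50% of the shift on the log2 scale, and 1389 genes (95.3%) lie nearer to 0 than these lines. The genes were chosen by their shift, so this share is a description.

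The other pairs of coffee groups give a scale for these counts. HFDC differed from HFCC in 17 genes (0.0934%) and HFGC differed from HFDC in 7 (0.0385%) at an adjusted p under 0.05, against 0 between HFGC and HFCC. At an unadjusted p under 0.05 the counts were 1450, 1226 and 464. The called counts moved between 2 and 40 and between 0 and 22 when any 1 array was left out, and comparisons that share arrays are not independent.

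Green coffee was also set against the mean of the HFCC and HFDC groups, since both of those powders are roasted, and again 0 genes (0%) were called. At an unadjusted p under 0.05 there were 612 genes (3.36%), 318 higher and 294 lower, and the whole interval lay within 1.5-fold for 17774 genes. With 6 roasted arrays the median standard error was 0.0795 and the far end of the interval of the median gene was 1.17-fold. The smallest unadjusted p was that of Cmtm6, a membrane protein, at 9.26, 9.18 and 9.15 in the green arrays, 9.47, 9.39 and 9.27 in the HFCC arrays and 9.80, 9.70 and 9.80 in the HFDC arrays. Its difference of -0.38 (95% interval -0.53 to -0.22, unadjusted p = 0.00012) was made up mostly by the HFDC arrays.

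Per1, a clock gene that glucocorticoids induce, was at 8.17, 8.23 and 7.86 in the green arrays, 8.14, 7.71 and 7.65 in the HFCC arrays and 7.28, 6.96 and 7.32 in the HFDC arrays. It was 0.58 higher than in the mean of the roasted groups (95% interval 0.33 to 0.82, unadjusted p = 0.00014, adjusted p = 1 by limma). Tsc22d3, a glucocorticoid-induced gene, read 10.47, 10.68 and 11.11 in green coffee against 10.55, 10.80 and 10.45 in the HFCC arrays and 9.96, 9.59 and 9.62 in the HFDC arrays. For both genes the roasted caffeinated arrays lay between or among the other groups, and against the HFCC group alone the differences were 0.25 (-0.03 to 0.53) and 0.15 (-0.19 to 0.49). These 3 genes were named after their values were seen.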

How the data were processed

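Liver RNA of 15 mice, 3 from each of 5 diet groups, had been hybridised by the authors to Affymetrix mouse whole-genome arrays, 1 array a mouse. The authors deposited intensities on a linear scale. The submitters' processing notes name RMA, which corrects background, normalizes across arrays and gives 1 value per probe set. Its version and annotation are not stated in the sources used here. Groups and replicates were taken from the labels, and log2 of each intensity was used without further normalization.

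Of 45101 probe sets, 64 were controls and 34958 carried exactly 1 gene symbol (932 several, 9211 none listed). Of those, 34754 matched a gene record, which changed 0 symbols. The brightest probe set stood for each of 18194 genes, one ending in _x_at only where there was no other. Some listed genes had no such probe set and are not reported.

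All arrays entered 1 model with 5 group means and 10 residual degrees of freedom (R 4.3.3, limma 3.58.1). Calls were made at 0.05 after Benjamini-Hochberg adjustment over all genes. Intervals are 95% intervals from this fit, with 14.9 degrees of freedom after moderation. No p was computed for a single gene by permutation, since 3 arrays against 3 allow no exact two-sided p below 0.1. Precision is limited by how many arrays there are, and p-values set a difference against the spread between mice, pooled over the 5 groups. The fit was tested on simulated data.

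The groups, the 29 gene lists (440 of 487 symbols measured) and the rules were chosen with earlier results of these data known. Named genes were the 10 highest and 10 lowest log2 differences among genes at or above the median level with arrays that did not overlap and an unadjusted p under 0.05, clone names left out; the 5 smallest p-values; the 10 widest intervals; and, of each list, the members with the largest differences, the narrowest intervals or a role as regulator. Other genes are said to be named after their values were seen. Alternatives were averaged probe sets, all probe sets, brighter genes only, cyclic loess, an offset of 32, fewer arrays in the fit, the replicate number as a block, eBayes with trend and robust, array weights, a covariate for the 3' minus 5' value, other thresholds, simultaneous intervals, and leaving out each array.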

Additional observations from a re-analysis of the deposited data

How the results depend on the processing

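HFGC against HFCC and HFGC against the roasted coffees kept 0 called genes under every alternative and without any 1 of the 15 arrays, except that 1 probe set, of Arid4b, was called for HFGC against HFCC when all probe sets were tested. With the bounds on HFGC against HFCC, genes within 2-fold numbered 8995 and within 1.5-fold 8630 among genes at or above the median level, and 44756 and 43351 with all probe sets, where fewer or more features were tested (98.9% and 94.9%, and 99.4% and 96.3%). Simultaneous intervals, which are wider by construction, left only 2822 of 18194 genes within 1.5-fold, against 17622 in the main fit. Without any 1 array the counts were 18032 to 18094 within 2-fold and 17273 to 17689 within 1.5-fold. The genes at an unadjusted p under 0.05 numbered 747 with array weights, and the cause was not tested. They numbered 609 with the 2 groups compared alone, where the median standard error was 0.0804 in place of 0.0918. Deviations of same-numbered arrays of both groups had correlations of 0.000587, -0.03 and -0.0318 over all genes. Pairs with different numbers had correlations from -0.032 to 0.069. These few values show no excess for same numbers and do not establish independence. The replicate block was kept as an alternative, with 0 called genes and 97.2% of genes within 1.5-fold.

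Leaving out each array, an alternative chosen after seeing the data for these comparisons, gave 7 to 2468 called genes for the mean of HFGC and HFCC against HF, 2 to 40 for HFDC against HFCC and 0 to 22 for HFGC against HFDC. Of 1136 values of 44 named genes under 26 alternatives, 8 moved by more than the SD within groups, and 11, from 8 genes and all without 1 HFCC or HFGC array, had the opposite sign. With an offset of 32 the dim gene Cxcl2 differed by 0.0914. The 3 arrays a group limit what can be seen, and signal over background was not measured here, since RMA values carry no background.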

Other observations

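Genes outside the lists that differed by 1.5-fold or more between HFGC and HFCC, named after their values were seen, included the following. Cyp17a1, the steroid 17-hydroxylase, had a log2 difference of -0.94 (95% interval -2.08 to 0.19), which was -0.495 without HFGC replicate 2 and -1.67 without HFGC replicate 3, and Slc25a30, a mitochondrial carrier, one of -0.90 (-1.97 to 0.17). The organic anion carriers Slc22a29 and Slc22a27 differed by -0.90 (-1.62 to -0.19) and -0.87 (-1.49 to -0.25), both from probe sets that can bind several transcripts. Tfrc, the transferrin receptor through which cells take up iron, differed by -0.69 (-1.45 to 0.07). Moxd1 was higher, by 1.28 (0.26 to 2.30), which was 0.71 without HFGC replicate 2 and 0.615 with an offset of 32. None of these genes was called.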
